A study of Homo sapiens with 4 samples.

Results

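The MYC, MAX and MXD network is a small family of transcription factors, and 9 of its genes were measured here in human mammary epithelial cells with and without a shRNA against the kinase PAK1. The genes were MYC, MYCN, MYCL1, MAX, MXD1, MXD3, MXD4, MXI1 and MNT, found by name among the 27193 gene names that the array design carries. They were read by 19 probes on 28 spots of each array. MYC, MYCN and MYCL1 encode proteins that bind DNA only as a dimer with MAX, and these dimers activate genes of cell growth from the E-box. The MXD proteins, MXI1 and MNT also dimerize with MAX, bind the same E-box and recruit the SIN3 histone deacetylase complex, which represses. The network is best known for the exchange of MYC for MXD partners on MAX when epithelial cells leave the cell cycle and differentiate.

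Total RNA came from MCF10A.B2, a non-tumorigenic breast epithelial line (MCF10A) with a chimeric ErbB2 (Her2) receptor that the crosslinker AP1510 activates. The 2 control arrays held MCF10A.B2 cells labelled Ctrl and called wild type for Pak1, and the 2 PAK1 shRNA arrays held the same line with the shRNA, which the series description calls Tet inducible. All 4 samples shared growth in 5% horse serum, starvation of serum for 3 h and exposure to AP1510 for 15 min. Each was labelled with Cy3 and hybridized alone to an Agilent whole genome array, and the study asked which genes change when PAK1 is reduced. The labels name no induction and no non-targeting shRNA for the control cells, so an effect of PAK1 loss and an effect of carrying or inducing a shRNA cannot be told apart. They do not say whether the replicates were separate cultures, so the p-values measure the spread between these arrays, which may be technical, and the series description speaks of cells derived from tumors where the labels name the cell line.

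PAK1 itself had normalized log2 intensities of 11.21 and 11.30 in control cells against 10.41 and 10.50 in PAK1 shRNA cells, which is 57.3% of the control level (limma adjusted p = 0.00014). Between 78.9% and 83.2% of probes per array stood well above background, and the number of arrays limits the precision. The change in these cells was wide. Of 21988 genes tested with limma and Benjamini-Hochberg adjustment, 62.5% passed an adjusted p of 0.05, with 30.0% higher and 32.5% lower in PAK1 shRNA cells. All 10 interferon markers rose, with a median log2 fold change of 6.08. Their mean log2 intensity was between 9.55 and 9.59 in control cells against 15.7 to 15.9 in PAK1 shRNA cells. Among them IFIT3 had no value on PAK1 shRNA array 2, so the mean of that array leaves it out. The rise of IFIT3 rests on 1 PAK1 shRNA value. All 12 proliferation markers (genes of DNA replication and mitosis) fell, with a median of -3.62, and their mean was between 13.1 and 13.2 in control cells and between 9.64 and 9.72 in PAK1 shRNA cells. The 8 basal mammary markers, which fit the line, were all well above background on all arrays, and 5 of them fell and 2 rose. Of the other lists, 6 of 8 luminal markers (3 higher, 1 lower), 4 of 6 fibroblast markers (3 higher, 1 lower) and 6 of 6 leukocyte markers (3 higher) were tested, with CD68 the leukocyte marker of largest change at 3.72. Both marker lists for proliferation and interferon moved with the groups, and their part in every result that follows was not tested. In bulk RNA, fewer cells of a type and less RNA per cell cannot be told apart.

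The E-box is the DNA site that the network's dimers share, so the promoters of the members were searched for its letters, CACGTG, which read the same on both strands. RefSeq (GRCh38.p14) gave 11 promoter windows for 8 of the members, each from 250 bases before to 50 bases after a transcription start, and MYC was not among them. The E-box was present in 2 of the 11 windows, against 7.23% of 34943 human windows of the same length. It began 238 bases before the start of MXD4 (chr4:2262315-2262359, minus strand) and 193 bases before the start of MNT (chr17:2401221-2401280, minus strand), and both stretches are shown because they hold the network's own site, in capitals.
MXD4: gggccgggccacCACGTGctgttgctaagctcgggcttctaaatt
MNT: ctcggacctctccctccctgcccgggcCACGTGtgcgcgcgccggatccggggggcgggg
The core of the interferon-stimulated response element, GAAANNGAAA on either strand, was searched because of the interferon markers, and it was in none of the 11 windows, against 3.57% of all windows. Such matches describe letters in a window and do not show binding.

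Of the 9 members, 5 rose and 2 fell at an adjusted p under 0.05, and the share called, 7 of 9, stood beside the 62.5% of all genes. The groups did not overlap in 7 of the 9, against 82.2% of all genes. Only MXD1 changed by 2-fold or more, 1 member of 9, where 17.8% of all genes did (8.63% higher and 9.21% lower). The median log2 fold change of the members was 0.37, which is the value of MXI1, and that of all genes was 0.01. By probe, 8 of the 19 rose, 5 fell and 6 did not pass, where 63.4% of all 27485 probes passed (30.1% higher and 33.4% lower).

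**Figure D1:**
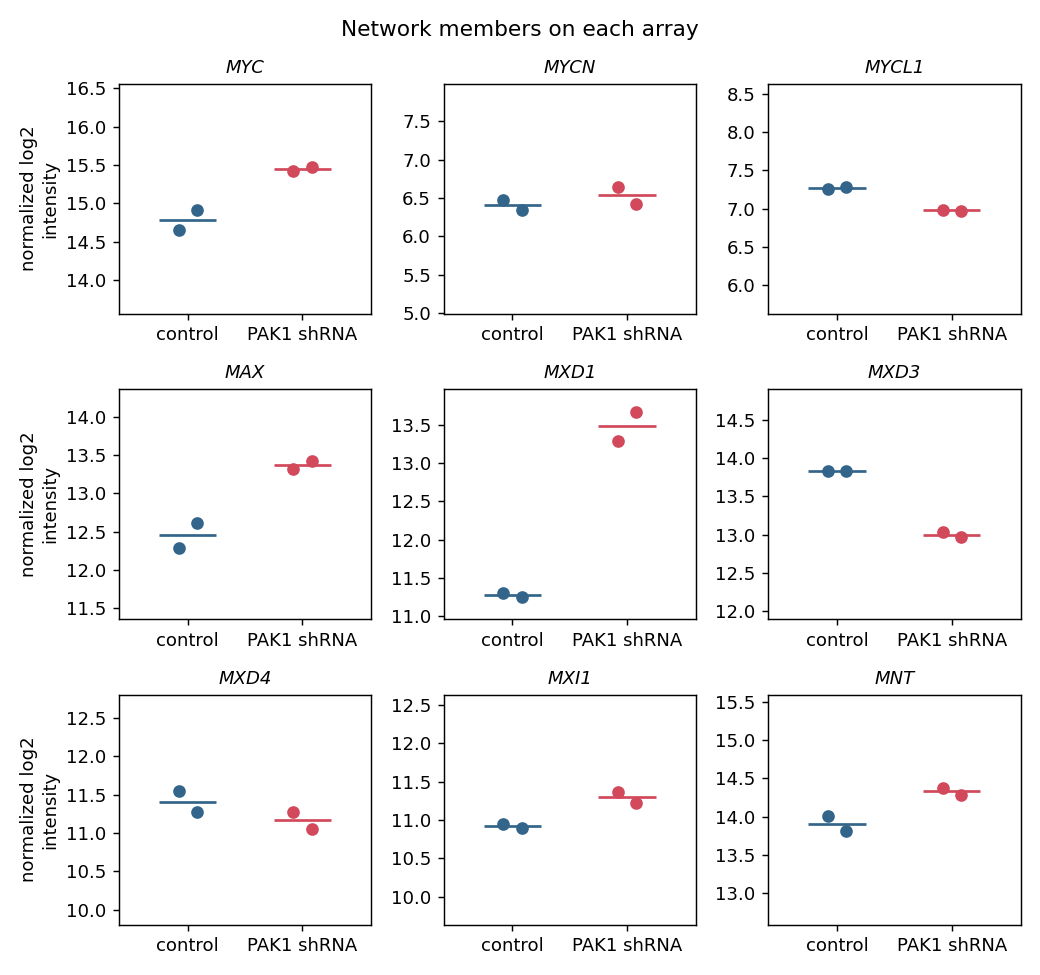
Normalized log2 intensity of each member on the 2 control and 2 PAK1 shRNA arrays, with the group mean as a line and every panel spanning the same height on the log2 axis. MXD1 moved most, from 11.30 and 11.26 to 13.29 and 13.67, while the groups of MYCN and MXD4 overlapped.

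MYC, the broadly expressed activator of the network, rose. It had normalized log2 intensities of 14.66 and 14.92 in control cells against 15.43 and 15.47 in PAK1 shRNA cells. Both PAK1 shRNA values lay above both control values, and the control pair differed by more than the PAK1 shRNA pair. The log2 fold change was 0.66 (standard error 0.10, limma adjusted p = 0.0012), or 1.58-fold, and 14.5% of all genes had a larger log2 fold change. This value comes from a probe that the design prints on 10 spots, in the gene on chromosome 8, of which 8 to 10 were left per array after flags. Before normalization the spots of 1 array had a standard deviation between 0.15 and 0.18 on the log2 scale, and much of this recurred by position on every array, from a median of 14.86 at the dimmest position to 15.42 at the brightest. At each of the 10 positions every PAK1 shRNA value left after flags lay above every control value left. The spots of 1 array read the same RNA, so they do not replicate the comparison of the groups. Over the 7 positions with a value on all arrays the difference before normalization was 0.24 ± 0.03 (SD over positions), against 0.66 after quantile normalization.

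**Figure D2:**
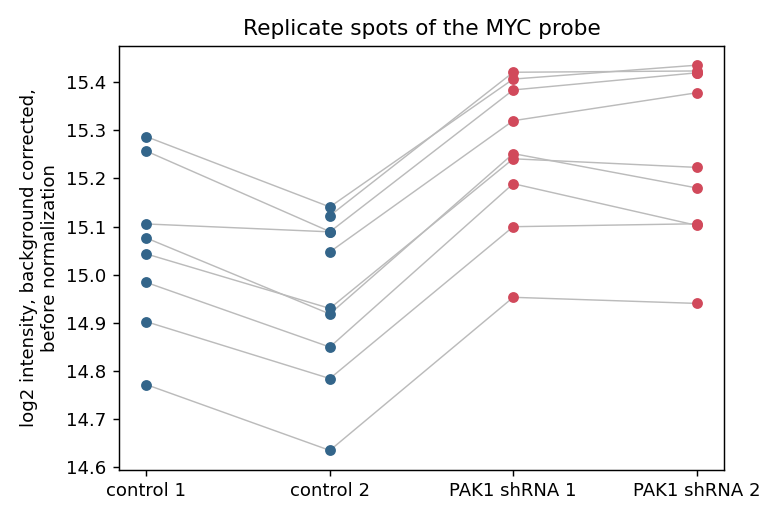
Background-corrected log2 intensity of the 10 replicate spots of the MYC probe on each array before normalization between arrays, with a grey line joining the same spot position across arrays where neighbouring values exist. Positions kept a similar order on all arrays, and at all 10 positions the PAK1 shRNA values lie above the control values.

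A further MYC probe, which the array design ties to transcripts that start at the upstream P0 promoter, gave 6.79 and 6.72 in control cells and 6.76 and 6.45 in PAK1 shRNA cells. Its groups overlapped, and its log2 fold change was -0.15 (limma adjusted p = 0.28, interval from -0.41 to 0.12). Its raw signal was between 67.1 and 105, where the offset of 50 compresses any change. The changes of the 2 probes differed by 0.81 (limma diffSplice adjusted p = 0.0046), which at that signal does not show which transcript rose.

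With quantile normalization no rise was called for the other MYC family genes, and their difference from MYC was not tested. MYCN, the paralog best known from the nervous system, gave 6.47 and 6.34 in control cells and 6.64 and 6.42 in PAK1 shRNA cells, and it was well above background on 3 of the 4 arrays. The groups overlapped, and the difference of 0.13 had a 95% interval from -0.11 to 0.36 (limma adjusted p = 0.31). Under median centring in place of quantile normalization MYCN was called higher, at 0.37 (limma adjusted p = 0.011). MYCL1, the paralog first described in lung cancer, fell from 7.25 and 7.29 to 6.99 and 6.97, a log2 fold change of -0.29 (standard error 0.07, limma adjusted p = 0.011). Both control values were above both PAK1 shRNA values. The raw signals of that probe were low, at 169 and 141 in control cells and 105 and 103.5 in PAK1 shRNA cells. At such signals the offset compresses a change, so the size of the fall is uncertain. Under median centring MYCL1 lost its call, at -0.15 (limma adjusted p = 0.16). Its further probe, for transcript variant 3, had no value on control array 1, where the spot was flagged, and gave 6.70 in control 2 against 6.73 and 6.88 in PAK1 shRNA cells (0.10, limma adjusted p = 0.46).

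MAX, the shared partner of the family, rose on all of its 3 probes. The probe standing for the gene gave 12.29 and 12.61 in control cells and 13.31 and 13.42 in PAK1 shRNA cells, a log2 fold change of 0.92 (standard error 0.12, limma adjusted p = 0.00046) or 1.89-fold. The groups were apart, and 9.69% of all genes had a larger log2 fold change. A probe in the coding sequence, 60 bases on chromosome 14 (hg19 chr14:65560459-65560518, minus strand), codes for part of the basic region that touches the E-box, and it is shown for that reason.
MAX: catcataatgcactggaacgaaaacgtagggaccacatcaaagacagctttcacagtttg
On this probe MAX had 9.34 and 9.38 in control cells and 10.56 and 10.55 in PAK1 shRNA cells, a log2 fold change of 1.20 (limma adjusted p = 9.9e-06). The probe for transcript variant 4 rose from 8.05 and 8.10 to 8.81 and 8.88 (0.77, limma adjusted p = 9.5e-05). The basic region probe rose by 0.35 more than the other MAX probes (limma diffSplice adjusted p = 0.034), and the test over the 3 probes together gave an adjusted p of 0.060.

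MXD1, the antagonist that is induced in differentiating epithelium and that pairs with MAX to repress, had the largest rise of the 9 members. It had log2 intensities of 11.30 and 11.26 in control cells against 13.29 and 13.67 in PAK1 shRNA cells. The lowest PAK1 shRNA value was far above the highest control value. The log2 fold change was 2.20 (standard error 0.13, limma adjusted p = 1.3e-05), or 4.60-fold, and 2.18% of all genes had a larger log2 fold change. The upstream MXD1 probe lies in coding sequence just past the part for the SIN3-binding helix, and its 60 bases span 777 bases of the genome (hg19 chr2:70142526-70143302, plus strand), so that it reads across a splice junction and is shown for that reason.
MXD1: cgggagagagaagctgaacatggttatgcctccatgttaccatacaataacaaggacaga
This junction probe gave 9.53 and 9.47 in control cells and 11.70 and 12.11 in PAK1 shRNA cells, a log2 fold change of 2.41 (limma adjusted p = 6.6e-06). Both MXD1 probes rose, and the difference of 0.21 between their changes did not pass (limma diffSplice adjusted p = 0.48).

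MXD3, the MXD protein that is known from proliferating cells, fell. It had 13.83 and 13.82 in control cells and 13.03 and 12.96 in PAK1 shRNA cells. The groups were apart by many times the spread within each. The log2 fold change was -0.83 (standard error 0.07, limma adjusted p = 8.2e-05), a level 56.2% of the control, and 12.6% of all genes had a lower log2 fold change. That probe is named for transcript variant 1 (hg19 chr5:176734216-176734275, minus strand). The probe named for variant 2 (hg19 chr5:176732666-176732725, minus strand) gave 9.63 and 9.28 in control cells and 9.74 and 9.78 in PAK1 shRNA cells, a log2 fold change of 0.30 that did not pass (limma adjusted p = 0.060). The changes of the 2 MXD3 probes differed by 1.13 (limma diffSplice adjusted p = 0.00042), so the fall was a fall of what the variant 1 probe reads.

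MXD4, a further MAX-binding repressor, had 11.55 and 11.27 in control cells and 11.28 and 11.06 in PAK1 shRNA cells. The groups overlapped, with a log2 fold change of -0.24 and a 95% interval from -0.53 to 0.05 (limma adjusted p = 0.13). Its other probe fell from 10.62 and 10.56 to 10.26 and 9.91 (-0.50, limma adjusted p = 0.0085), and the difference between the probes did not pass (limma diffSplice adjusted p = 0.34). The call for MXD4 therefore rests on the choice of probe.

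MXI1, the member also known as MAD2, rose on the probe standing for the gene, from 10.95 and 10.90 to 11.37 and 11.22. The groups did not overlap, and the log2 fold change was 0.37 (standard error 0.08, limma adjusted p = 0.0069) or 1.29-fold. Raw signals of this probe, before normalization, did overlap, at 2649 and 1980 in control cells and 2246 and 1990 in PAK1 shRNA cells. This probe and a neighbouring one are listed for 3 RefSeq transcripts each. The third probe, 60 bases (hg19 chr10:111985981-111986040, plus strand), is listed for 1 transcript, variant 1, and reads the start of its coding sequence, which encodes the SIN3-binding helix. It is shown because the design ties it to that variant alone.
MXI1: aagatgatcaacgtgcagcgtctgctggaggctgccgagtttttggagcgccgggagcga
On it MXI1 fell, from 7.88 and 7.87 to 7.67 and 7.56, a log2 fold change of -0.26 (limma adjusted p = 0.023). Its raw signals were low, at 286 and 221 in control cells and 167 and 151 in PAK1 shRNA cells. There the offset of 50 compresses a change, so the size of this fall is uncertain. The neighbouring shared probe had 10.51 and 10.45 in control cells and 10.70 and 10.48 in PAK1 shRNA cells, with overlapping groups (0.11, limma adjusted p = 0.34). The variant 1 probe differed from the other MXI1 probes by -0.50 (limma diffSplice adjusted p = 0.0036). The rise given for MXI1 thus holds after normalization and for 1 of its 3 probes.

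MNT, the widely expressed antagonist that keeps MAX from MYC in growing and resting cells, rose on the probe standing for the gene, from 14.01 and 13.81 to 14.38 and 14.28. The groups did not overlap, and the log2 fold change was 0.42 (standard error 0.09, limma adjusted p = 0.0069) or 1.34-fold. Before normalization the raw signals of that probe overlapped, at 21621 and 14782 in control cells and 18235 and 17170 in PAK1 shRNA cells. The other MNT probe, named for the same transcript and starting 2056 bases away, fell from 8.67 and 8.70 to 8.47 and 8.37 (-0.26, limma adjusted p = 0.020). The changes of the 2 probes differed by 0.68 (limma diffSplice adjusted p = 0.0022). The direction of MNT is therefore not settled by these probes.

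Taken over all probes of a gene, the limma diffSplice test passed for MYC (adjusted p = 0.0043), MXD3 (0.00038), MXI1 (0.0052) and MNT (0.0020) among the 7 members in which it was made. It did not pass for MAX (0.060), MXD1 (0.47) and MXD4 (0.33). Across the array this test passed for 40.0% of the 4170 genes with several probes. MAX and MXD1 were the members that rose on every probe.

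The genes whose pattern over the 4 arrays was nearest to that of MYC, by Euclidean distance of centred log2 values among 19776 genes, were MGC4859, B4GALT7, FOXI2, LRPAP1 and HIST1H2BL. MGC4859 was nearest, at a distance of 0.04, with 9.16 and 9.44 in control cells and 9.97 and 9.96 in PAK1 shRNA cells. With 4 arrays such a likeness is a description only.

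The parallel arm of the network runs through MLX, which pairs with the glucose sensors MondoA (MLXIP) and ChREBP (MLXIPL), and through MGA, a large MAX partner. Of these 4 genes 1 rose, none fell and 3 did not pass, where 30.0% of all genes rose and 32.5% fell. MLXIP rose from 12.52 and 12.37 to 12.91 and 12.85, a log2 fold change of 0.43 (limma adjusted p = 0.0038). MLX, MLXIPL and MGA had values of -0.08, -0.16 and -0.07. Of the 2 classic targets of MondoA, ARRDC4, an arrestin-domain protein that restrains glucose uptake, fell by 2.01 on the log2 scale (limma adjusted p = 3.9e-06). TXNIP, its relative, had 14.45 on control array 2 and 16.44 on PAK1 shRNA array 1 and was flagged on the other array of each group. Its difference of 1.99 has no replicate of its own, and although limma counts it as higher with the spread of other genes, no direction is drawn from it.

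Genes for proteins that MYC recruits to chromatin mostly fell. Of 12 coactivators 2 rose, 8 fell and 2 did not pass, with a median log2 fold change of -0.45, where 32.5% of all genes fell. ACTL6A, an actin-related subunit of the TIP60 and SWI/SNF complexes, fell by 1.51 on the log2 scale (limma adjusted p = 7.9e-06). RUVBL1, an ATPase of the same TIP60 complex, fell by 1.05, and WDR5, which anchors MYC at chromatin, fell by 0.94. The genes that rose, named after their values were seen, were ZBTB17 (MIZ1), with which MYC represses, at 0.73, and the acetyltransferase KAT2A at 0.45, which had no value on PAK1 shRNA array 1. KAT5 and HCFC1 had 0.07 and 0.11 and did not pass.

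The SIN3 complex that the MXD proteins, MXI1 and MNT recruit showed 2 genes higher, 9 lower and 4 that did not pass among 15, with a median of -0.60, where 30.0% of all genes rose and 32.5% fell. BRMS1L, a subunit of the complex, fell by 1.46 on the log2 scale (limma adjusted p = 1.8e-05), and RBBP4, a histone chaperone shared with other complexes, fell by 1.19. ARID4B, another subunit, rose by 1.27 (limma adjusted p = 3.4e-05). The scaffolds SIN3A and SIN3B had -0.03 and 0.13, the deacetylase HDAC1 had -0.02 and SUDS3 had -0.17, and none of these passed. Another deacetylase of the list, HDAC2, did fall, with a log2 fold change of -0.999 (limma adjusted p = 9.2e-05). HDAC2 was named after its values were seen.

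Genes that set how long MYC protein lasts moved in both directions, with 4 higher, 9 lower and 2 that did not pass among the 15 tested and a median of -0.26. The share higher, 26.7%, was near the 30.0% of all genes, and the share lower was 60% against 32.5%. KIAA1524 (CIP2A), an inhibitor of the phosphatase PP2A, did not pass the background filter. The largest changes were in the mitotic kinases PLK1, which fell by 3.71 on the log2 scale, and AURKA, which fell by 3.54 (limma adjusted p = 2.8e-07). PLK1 is also among the 12 proliferation markers. FBXO32 (atrogin-1), a ubiquitin ligase subunit, rose by 2.51 (limma adjusted p = 1.1e-05). HUWE1 and USP36 had -0.08 and -0.13 and did not pass.

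Most textbook targets that MYC induces fell, while the MYC transcript was higher. Of 42 growth genes of the nucleolus, ribosome assembly, translation and metabolism, a list without cell cycle genes, 5 rose, 31 fell and 6 did not pass, where 30.0% and 32.5% of all genes rose and fell. Their median log2 fold change was -0.71 against 0.01 for all genes, and 36 of them lay below that of all genes. At least a 2-fold fall was called for 12 of the 42, where 9.21% of all genes fell so far. ODC1, the first enzyme of polyamine synthesis and a classic E-box target, had 14.25 and 14.46 in control cells and 12.15 and 12.02 in PAK1 shRNA cells, a log2 fold change of -2.27 (limma adjusted p = 4.1e-06). IMPDH2, which controls guanine nucleotide synthesis, fell by 2.13, and PAICS, an enzyme of purine synthesis, fell by 1.95. The nucleolar proteins NCL and FBL had log2 fold changes of -0.93 and -1.68. The genes that rose included the hexokinase HK2 at 0.93 and the transferrin receptor TFRC at 0.52. NCL, FBL, HK2 and TFRC were chosen for the text after their values were seen. The 12 proliferation markers fell alongside these genes, with a median of -3.62.

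Of the 13 genes tested that MYC is known to repress, 8 rose and 5 fell, with a median of 0.33, and CDKN2B did not pass the background filter. The share lower, 38.5%, was near the 32.5% of all genes, and the share higher was 61.5% against 30.0%. CDKN1A (p21), a brake on the cell cycle, rose from 9.05 and 9.28 to 10.31 and 10.29, a log2 fold change of 1.14 (limma adjusted p = 6.1e-05). The largest changes were falls, with log2 fold changes of -3.36 for CEBPA, a differentiation factor (limma adjusted p = 2.5e-06), and -1.72 for CDKN1C (p57), another inhibitor of the cycle. Median and largest members of this list thus had opposite signs.

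**Figure D3:**
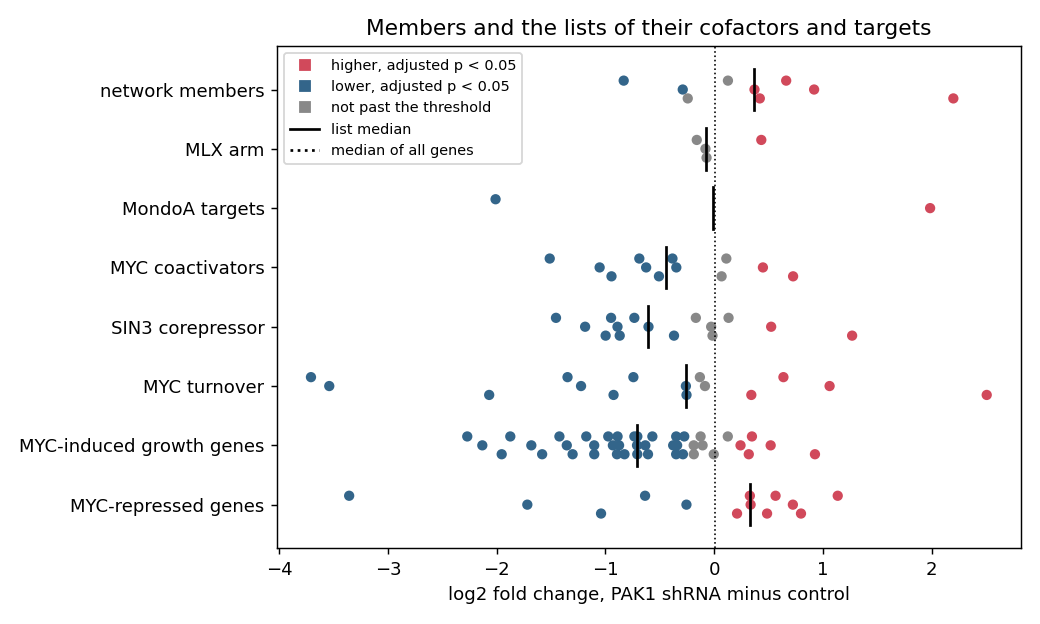
Log2 fold change of PAK1 shRNA over control for the members and for the genes of each list, coloured by the limma call, with the list median as a solid line and the median of all genes (0.01) dotted. The MYC-induced growth genes have a median of -0.71 and the members one of 0.37, which is the value of MXI1.

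**Figure D4:**
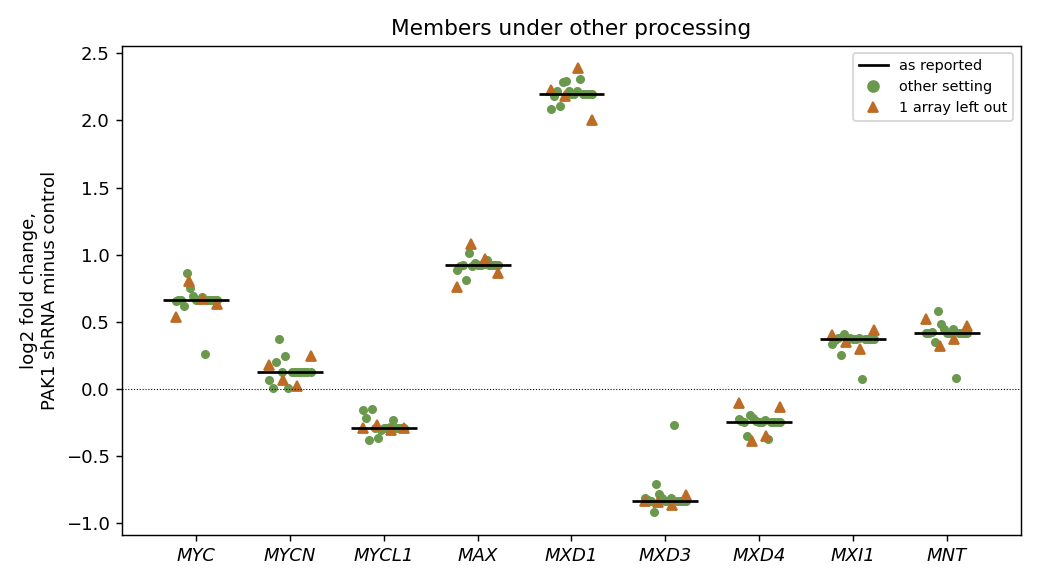
Log2 fold change of each member as reported (line), under other processing settings (circles) and with 1 array left out (triangles). No value crossed 0 for any member, and the range was from 2.00 to 2.39 for MXD1, from 0.76 to 1.08 for MAX, and from 0.26 to 0.86 for MYC, where the lowest value is the mean over its probes.

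The members kept their sign under each of the processing settings run, and with each array left out. MXD1 and MXD3 passed under all 19 of them. MYC and MAX passed under all but the unpaired t-test. The study names that test in its general statistics section and limma for its arrays. A mean over the probes of a gene lowered MYC to 0.26 and moved MXD3 to -0.26, while for MXI1 and MNT it left 0.08 and no call. Under that mean MYCL1 also lost its call (-0.23, limma adjusted p = 0.10) and MXD4 gained one (-0.37, limma adjusted p = 0.039). The smallest two-sided p that an exact permutation test can give for 1 gene with 2 arrays a group is 0.333, so each call leans on the variance that limma shares across genes.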

How the data were processed

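The 4 human arrays were grouped by their labels. The authors deposited, for every spot, its intensity from Agilent Feature Extraction (version 9.5, per the submitters' processing notes), not normalized between arrays, with hg19 probe coordinates. The authors also deposited log2 values for 24302 probes, with medians of 9.42, 9.42, 9.40 and 9.40. Their centring is not given in the sources used here, and they served as an alternative.

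As the study's methods name, intensities were corrected with normexp (offset 50) and quantile normalized. Spots of flagged background were left out of the normexp fit, since with them the background mean it estimated was -666 and -740 for control 1 and 2 but -10.7 and -10.2 for the other arrays. Control and flagged spots were dropped, not imputed, and spots of a probe averaged. A probe was kept if both arrays of a group, or of each, had it well above background, and the one of highest mean stood for its gene. Genes were tested with limma 3.58.1 in R 4.3.3 (Benjamini-Hochberg, threshold 0.05). Probes were also fitted apart and compared with diffSplice, chosen after their values were seen. The text names every member and probe, PAK1, of each list of cofactors or targets the 3 called genes of largest change and those not called where 5 or fewer, and the 5 genes nearest to MYC. For the marker lists of proliferation, interferon and cell types counts are given in place of these names, apart from CD68 and IFIT3. Genes outside the rule are said to be. Members and lists were chosen with earlier results of these data known. Gene names are those of the array, matched through RefSeq synonyms.

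On simulated data for this comparison 200 of 21021 genes were changed. There limma recovered 67% of log2 changes of 1 and 3% of 0.5, with 2 unchanged genes called. In the real data 62.5% of genes were called, and the adjustment is less strict when more genes change. These recovery shares therefore do not carry over to the calls above. Replicate numbers did not pair the arrays. All arrays lay on 1 slide, so no slide block could be fitted. Alternatives changed the background correction, scaling, filter, handling of flags and probes, test or threshold, added the replicate block, or left out an array.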

Additional observations from a re-analysis of the deposited data

How the results depend on the processing

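Over the members, 170 values were recomputed under other settings: 154 kept their call, 11 lost it, 5 gained it and none changed sign. The unpaired t-test after adjustment called 4053 genes higher and 4681 lower. Among members it called 1 higher, with MYC at an adjusted p of 0.074 and MAX at 0.066. It left 0 of the MLX arm, 0 MondoA targets and 1 coactivator higher. The mean over probes left 3 members higher, lost the call of MYCL1 (-0.23) and did not call MXI1 or MNT, while it called MXD4 lower (-0.37). An adjusted p under 0.01 left 1 member lower and 1 coactivator higher. Median centring gave 1 MLX arm gene lower and 3 growth genes higher, made a call of MYCN (0.37) and MXD4 (-0.35) and lost MYCL1 (-0.15). Cyclic loess left 0 MondoA targets and 1 coactivator higher. With each array left out in turn, 4 to 5 members were higher and 1 to 3 lower, 0 to 1 MondoA targets, 1 to 2 coactivators and 3 to 5 growth genes were higher; without PAK1 shRNA replicate 2, MYCL1 had an adjusted p of 0.054, without PAK1 shRNA replicate 1, MXI1 had 0.053, and without control replicate 2, MXD4 was called at -0.39. TXNIP had no value in a group once control replicate 2 or PAK1 shRNA replicate 1 was left out. The KAT2A probe had no PAK1 shRNA value once PAK1 shRNA replicate 2 was left out. Cyclic loess and the t-test used only probes with a value on every array, so the incomplete probes of TXNIP and KAT2A dropped out. The cause was not tested for the other changes. Under every setting the median over all genes moved by less than 0.1 on the log2 scale. Each setting scaled the arrays to a like level or used values already at one, so a small shift was set in advance. Median raw signals did differ, at 501 and 383.5 for control replicates 1 and 2 and 326 and 319 for PAK1 shRNA replicates 1 and 2.

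Replicate numbers only name the arrays: same-numbered arrays had deviations correlated at 0.0075 over 21021 genes. With the number as a block, 6681 genes were higher and 7161 lower, with 5 members higher and 3 lower, since MXD4 (-0.24) passed at an adjusted p of 0.034.

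MYCN was well above background on 3 of the 4 arrays, which limits what its probe can show.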
